A study of Mus musculus with 15 samples.

Results

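The 10 genes studied here belong to the AP-1 and EGR transcription factor families and were followed in 15 mouse RNA-seq libraries. They are the FOS genes Fos, Fosb, Fosl1 and Fosl2, the JUN genes Jun, Junb and Jund, and the zinc finger genes Egr1, Egr2 and Egr3. They were chosen by name as families, with earlier results of these data known. All 10 were found by symbol among the 55471 genes of the expression table. AP-1 is a dimer of basic leucine zipper proteins: FOS proteins must pair with a JUN protein, while JUN proteins can also pair among themselves. EGR proteins bind GC-rich sites through zinc fingers. Many of these genes are immediate early genes, transcribed within minutes of a growth factor, serum or stress signal through MAP kinases acting on factors already at their promoters, and their mRNAs decay fast.

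Poly(A)-enriched RNA came from cells that the labels call MSCLCs, in a series whose title concerns YAP1, the Ewing sarcoma fusion EWS::FLI1 and reprogramming of bone mesenchymal stem cells by IGF-1. In experiment 1, the genotype was labelled MSC in 3 libraries, numbered 202, 234 and 237 in their titles (the last ones also say WT), and EFPrx1MSCLC in 4, numbered 219, 221, 225 and 229. Experiment 2, on another flowcell, compared 2 libraries labelled EF (EF 1 and EF 2), 2 labelled ha (ha 1 and ha 2, titled Combi T) and 4 labelled hr (hr 1 and hr 2, titled Combi uns-1, and hr 3 and hr 4, titled Combi uns-2). Every title of experiment 2 carries the number 221, so its 3 groups may go back to 1 line of cells. EFPrx1MSCLC 221 of experiment 1 carries it too, and whether it is the same line is not labelled. The series design text writes the groups of experiment 2 as EFPrx1, ha-EFPrx1 and hr-EFPrx1. The sources used here do not explain ha, hr, Combi, T and uns, and give no treatment, passage, animal age or promoter behind the fusion. Whether replicate libraries are separate cultures or animals is not labelled either, and p-values then cover only the spread among these libraries, which can be technical.

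Library totals ran from 14906209 to 26833922 counts in experiment 1 and from 11195401 to 16378408 in experiment 2. A total of 3 pairs of libraries lay close together. The median squared difference between 2 libraries, set to 1 where reads are only sampled, was 1.285 for EF 1 and EF 2, 1.274 for hr 1 and hr 2 and 1.294 for hr 3 and hr 4, against 16.31 to 17.42 between the other hr pairs, 20.62 for the ha pair and 7.664 to 118 in experiment 1. Each close pair may therefore be repeat libraries of 1 culture, and the calls of experiment 2 are also given with each close pair summed, which leaves 1 EF, 2 ha and 2 hr samples. The mesenchymal stromal markers were present in all groups, with a sum of 2454 to 16881 CPM (counts scaled by the library total) per library. The 10 macrophage markers summed to 9959, 28272 and 18005 CPM in MSC 202, 234 and 237, to 28.5 to 413 CPM in the EFPrx1MSCLC libraries and to 5.44 to 16.8 CPM in experiment 2, where Adgre1 and Tyrobp were at 0 in every library. The 7 hematopoietic markers summed to 527 to 814 CPM in MSC and 0.984 to 46.1 CPM in EFPrx1MSCLC. In such bulk libraries, fewer cells of a type and less RNA per cell cannot be told apart.

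Promoter sequence is shown for 4 genes with wide differences between groups and an entry in the RefSeq promoter table (GRCm38.p6). An entry exists for 7 of the 10 and is missing for Fosl1, Egr1 and Egr3. Each stretch lies upstream of an annotated start, outside annotated exons, and is written 5′ to 3′ on the strand of the gene. Capitals mark TGACG, the core of the cyclic AMP response element (CRE) bound by CREB and ATF proteins, in either orientation, the CArG box, which binds serum response factor, and the TATA box TATAAA. The stretches are chr12:85473640-85473889 on the plus strand for Fos, chr7:19310052-19310295 on the minus strand for Fosb, chr8:84978749-84978998 on the minus strand for Junb and chr10:67537619-67537868 on the plus strand for Egr2.
Fos: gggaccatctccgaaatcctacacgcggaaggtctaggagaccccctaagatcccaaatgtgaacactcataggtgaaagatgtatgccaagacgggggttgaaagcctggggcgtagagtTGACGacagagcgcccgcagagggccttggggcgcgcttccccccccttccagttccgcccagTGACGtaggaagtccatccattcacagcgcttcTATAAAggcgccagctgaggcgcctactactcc
Fosb: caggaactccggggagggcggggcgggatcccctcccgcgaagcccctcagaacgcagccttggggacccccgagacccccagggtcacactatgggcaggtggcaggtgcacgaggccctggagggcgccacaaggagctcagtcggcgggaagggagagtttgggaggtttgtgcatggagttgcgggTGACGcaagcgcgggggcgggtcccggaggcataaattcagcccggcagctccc
Junb: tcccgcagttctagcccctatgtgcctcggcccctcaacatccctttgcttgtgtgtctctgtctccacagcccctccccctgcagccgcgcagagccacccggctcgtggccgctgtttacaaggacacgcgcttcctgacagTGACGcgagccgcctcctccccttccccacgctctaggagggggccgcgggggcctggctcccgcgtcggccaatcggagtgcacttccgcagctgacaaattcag
Egr2: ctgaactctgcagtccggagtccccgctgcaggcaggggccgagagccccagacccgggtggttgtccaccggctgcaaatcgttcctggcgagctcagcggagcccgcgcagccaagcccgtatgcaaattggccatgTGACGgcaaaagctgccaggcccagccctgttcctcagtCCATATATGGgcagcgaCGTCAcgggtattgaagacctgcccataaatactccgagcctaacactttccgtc
The Fos stretch holds TGACG at 129 to 125 and at 66 to 62 bases before the start, and TATAAA at 33 to 28. The Egr2 stretch holds the CArG box CCATATATGG at 72 to 63 bases before the start, with TGACG at 111 to 107 and its reverse form CGTCA at 55 to 51. Fosb has TGACG at 60 to 56 and the EGR-type site GCGGGGGCG at 50 to 42, and Junb has TGACG at 106 to 102. Both strands of the 250 bases upstream of 32851 annotated starts were searched for the same letters: 17.8% held TGACG, which is also part of the full CRE TGACGTCA (1.55%), 12.4% held TATAAA, 3.06% held an EGR-type site (GCGTGGGCG or GCGGGGGCG) and 1.47% held a CArG box. The AP-1 site (TGAGTCA or TGACTCA), present in 4.46%, and the GGAA pair GGAAGGAA, present in 3.12% and of the kind that EWS::FLI1 binds as longer repeats, were in none of the windows of the 7 genes. The TEAD site GGAATG, through which YAP1 acts, was in 12.6% of windows and, among these genes, in the window of another Egr2 start. These matches describe letters only, and no binding was measured.

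In experiment 2, ha differed from EF in all 10 genes: Fos, Fosb, Fosl2, Jun, Junb, Jund, Egr1, Egr2 and Egr3 were higher and Fosl1 was lower by edgeR's quasi-likelihood test. The background was high, since 42.6% of all 13998 genes tested were called in this comparison, 23% higher and 19.6% lower. All 10 genes also lay apart in level, 9 higher and 1 lower without overlap, where 39.2% of all genes lay higher and 36.1% lower. The median log2 fold change was 2.97 for the 10 genes and 0.05 for all genes. The 2 ha libraries lay far apart in most of these genes, and without ha 1 the calls fell from 10 to 6. Without EF 1 they fell to 3 (Fosl1, Fosl2 and Egr3), and without EF 2 to 4 (the same genes and Fos). The sum of mesenchymal stromal markers was 16055 and 16881 CPM in ha, 8082 and 8180 CPM in EF and 7231 to 7748 CPM in hr, and its part in these values was not tested. With the close libraries summed, 4.56% of all genes and 1 of these 10, Egr3, passed (adjusted p = 0.0367). Ccdc85b, Junos, Prdx2 and Gm11175 overlap Fosl1, Jun, Junb and Jund on the opposite strand, and the strand setting of the counting is not stated.

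Fos, the founding member of the family, was at 2.41 and 3.33 CPM in EF and at 410 and 41.7 CPM in ha 1 and ha 2. The groups did not overlap, and even the lower ha library was above both EF libraries, with a log2 fold change of 6.34 ± 1.24 (SE; adjusted p = 0.00564, edgeR). Without ha 1 the log2 fold change was 3.79 (adjusted p = 0.0168), without EF 1 it was 6.12 (adjusted p = 0.0553) and with the close libraries summed 6.31 (adjusted p = 0.111). Fosb, its closest relative, was at 3.93 and 2.70 CPM in EF and 246 and 12.8 CPM in ha. The groups did not overlap, and the log2 fold change was 5.35 ± 1.47 (adjusted p = 0.0219, edgeR), but it rested on ha 1: without that library it was 1.89 (adjusted p = 0.207). Limma-voom gave 4.08 for Fosb (adjusted p = 0.176), and the summed libraries 5.33 (adjusted p = 0.186).

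Fosl1 (Fra-1), a FOS protein without the strong activation domain of Fos, went the other way. It was at 87.6 and 83.1 CPM in EF and at 25.3 and 9.40 CPM in ha, again without overlap. The log2 fold change was -2.27 ± 0.46 (adjusted p = 0.00642, edgeR), -3.24 without ha 1, -1.69 without ha 2, and -2.29 with the close libraries summed (adjusted p = 0.0826). Ccdc85b, on the opposite strand and overlapping it, moved in the same direction, by -1.28 ± 0.13 on the log2 scale (adjusted p = 0.000536, edgeR); the part of its reads in the Fosl1 value was not tested. Fosl2 (Fra-2) had the tightest values of the family, at 158.8 and 158.9 CPM in EF and 341.5 and 343.6 CPM in ha. Its log2 fold change was 1.12 ± 0.10 (adjusted p = 0.00034, edgeR) and passed in every alternative except the summed libraries (adjusted p = 0.0715).

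Jun was at 111.3 and 111.6 CPM in EF, and at 415 CPM in ha 1 but 133 CPM in ha 2. The difference of 1.34 ± 0.46 (log2; adjusted p = 0.0474, edgeR) came mainly from ha 1: it was 0.20 without that library (adjusted p = 0.171), and the call was lost in 12 of 16 alternatives. Junb, which can restrain Jun and is itself an early response gene, was at 28.0 and 30.3 CPM in EF and 257 and 95.4 CPM in ha. Its log2 fold change was 2.63 ± 0.55 (adjusted p = 0.00748, edgeR), and 1.65 without ha 1 (adjusted p = 0.0296). It did not pass without EF 1 (2.56, adjusted p = 0.0612), without EF 2 (2.69, adjusted p = 0.0545), with no filter on low counts (2.61, adjusted p = 0.0537) or with the close libraries summed (2.60, adjusted p = 0.107). Prdx2, the overlapping gene on the other strand, differed by 0.64 ± 0.14 (adjusted p = 0.00822, edgeR). Jund, the most evenly expressed JUN gene in many tissues, was at 61.7 and 57.4 CPM in EF and 177 and 87.2 CPM in ha. Its change of 1.18 ± 0.33 (log2; adjusted p = 0.0226, edgeR) fell to 0.49 without ha 1 (adjusted p = 0.0665).

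Egr1, the most abundant EGR mRNA per length in every library, was at 77.4 and 74.7 CPM in EF and at 1465 and 317 CPM in ha 1 and ha 2. The highest value of any of the other 9 genes was 477 CPM, for Fosl2 in EFPrx1MSCLC 225. The log2 fold change was 3.60 ± 1.03 (adjusted p = 0.0256, edgeR) and 2.00 without ha 1 (adjusted p = 0.144). Egr2 was at 2.32 and 1.59 CPM in EF and 40.2 and 8.98 CPM in ha, a log2 fold change of 3.70 ± 0.81 (adjusted p = 0.00898, edgeR), or 2.14 without ha 1 (adjusted p = 0.0395). The call was lost without EF 1 (3.98, adjusted p = 0.0567), without EF 2 (3.44, adjusted p = 0.0745), by limma-voom (3.22, adjusted p = 0.0623) and with the close libraries summed (3.68, adjusted p = 0.117). Egr3, a close relative of Egr1 and also an early response gene, was at 2.23 and 3.49 CPM in EF and 35.0 and 21.2 CPM in ha. Its log2 fold change of 3.31 ± 0.36 (adjusted p = 0.000588, edgeR) passed in all 16 alternatives.

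**Figure D1:**
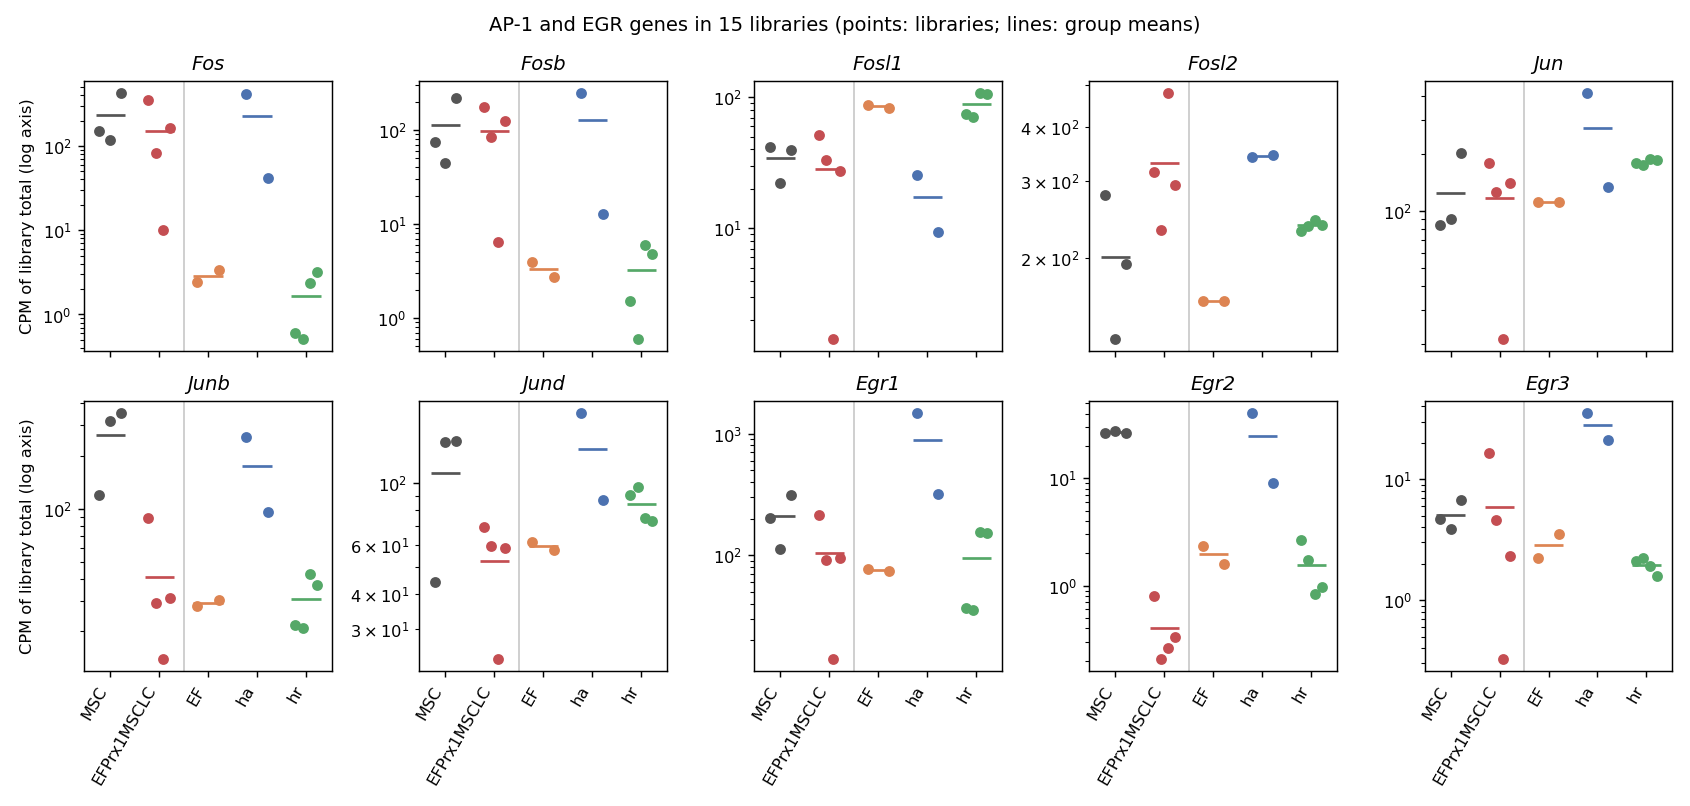
CPM of the library total on a log axis for the 10 genes in 15 libraries, with points for libraries and lines for group means; the vertical line parts the experiments. Fos lies at 2.41 and 3.33 CPM in EF, at 41.7 and 410 CPM in ha and at 0.518 to 3.16 CPM in hr, and Egr2 at 26.3 to 27.7 CPM in MSC and at or below 0.806 CPM in EFPrx1MSCLC.

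Of the 10 genes, 1 was called in hr against EF. This was Fosl2, at 230, 237, 244 and 237 CPM in hr 1 to hr 4 with a log2 fold change of 0.58 ± 0.09 (adjusted p = 0.0161, edgeR). Of all genes, 6.95% were called, 3.88% higher and 3.07% lower. This call was lost without EF 1 (0.57, adjusted p = 0.231), without EF 2 (0.58, adjusted p = 0.225) and with the close libraries summed (0.57, adjusted p = 0.916), where 0% of all genes passed. Jun was at 178, 175, 188 and 186 CPM in hr, above both EF libraries, and did not pass (0.71 ± 0.40, adjusted p = 0.311, edgeR); without ha 1, whose spread enters the shared fit, it passed with 0.70 (adjusted p = 0.00689), and without ha 2 likewise (adjusted p = 0.00691). Jund, at 90.4, 96.6, 75.1 and 73.0 CPM, also lay above both EF libraries and did not pass (0.49 ± 0.29, adjusted p = 0.321, edgeR). Thus 3 of 10 genes lay higher in hr without overlap and 0 lower, where 22.5% and 24.2% of all genes did.

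The ranges of hr and EF overlapped in the other 7 genes. Fos was at 0.596, 0.518, 2.39 and 3.16 CPM in hr 1 to hr 4, from 7, 6, 34 and 36 counts, with a log2 fold change of -0.77 ± 1.16 against EF (adjusted p = 0.723, edgeR). Fosb was at 1.53, 0.604, 6.05 and 4.83 CPM, Junb at 21.8, 21.0, 42.8 and 37.0 CPM and Egr1 at 36.8, 35.3, 156 and 152 CPM, each with the uns-1 libraries below both EF libraries and the uns-2 libraries above them. Fosl1 was at 74.0, 71.2, 107 and 105 CPM, in the same arrangement. Egr2 ran from 0.844 to 2.64 CPM and Egr3 from 1.58 to 2.24 CPM. Log2 fold changes of these 7 genes lay between -0.77 and 0.34, with standard errors of 0.32 to 1.30, so that changes of several fold in Fos, Fosb and Egr1 were not detectable with these libraries.

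Set against ha, with the same ha libraries as above, hr was lower in Fos, Fosb, Fosl2, Junb, Egr1, Egr2 and Egr3 and higher in Fosl1, where 39.4% of all genes were called, 21.5% lower and 17.9% higher. The same 8 genes lay apart without overlap, where 28.7% of all genes lay lower and 26.8% higher. This comparison and both comparisons with EF share libraries and are not independent. Fos differed most, by -7.11 ± 0.96 on the log2 scale (adjusted p = 0.00136, edgeR), and by -4.56 without ha 1 (adjusted p = 0.00505). Egr3 differed by -3.86 ± 0.28 (adjusted p = 0.000116, edgeR), with 1.58 to 2.24 CPM in hr against 21.2 and 35.0 CPM in ha. Fosl1 was 2.34 ± 0.43 higher in hr (log2; adjusted p = 0.0047, edgeR), 3.31 without ha 1 and 1.76 without ha 2. Fosb (-5.34 ± 1.10) and Egr1 (-3.26 ± 0.78) lost their calls without ha 1, at -1.89 (adjusted p = 0.156) and -1.67 (adjusted p = 0.162). The remaining called changes were -4.04 ± 0.64 for Egr2, -2.55 ± 0.43 for Junb and -0.54 ± 0.09 for Fosl2; without ha 1, Egr2 was at -2.49 and Junb at -1.57, both still called. Jun (-0.63 ± 0.38, adjusted p = 0.22) changed sign without ha 1, to 0.50 with an adjusted p of 0.0117, and reached -1.26 without ha 2 (adjusted p = 0.000451). Jund (-0.68 ± 0.27) passed without ha 2, at -1.15 (adjusted p = 0.00324). With the close libraries summed, Fos (adjusted p = 0.0474) and Egr3 (adjusted p = 0.0118) passed among 7.95% of all genes.

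**Figure D2:**
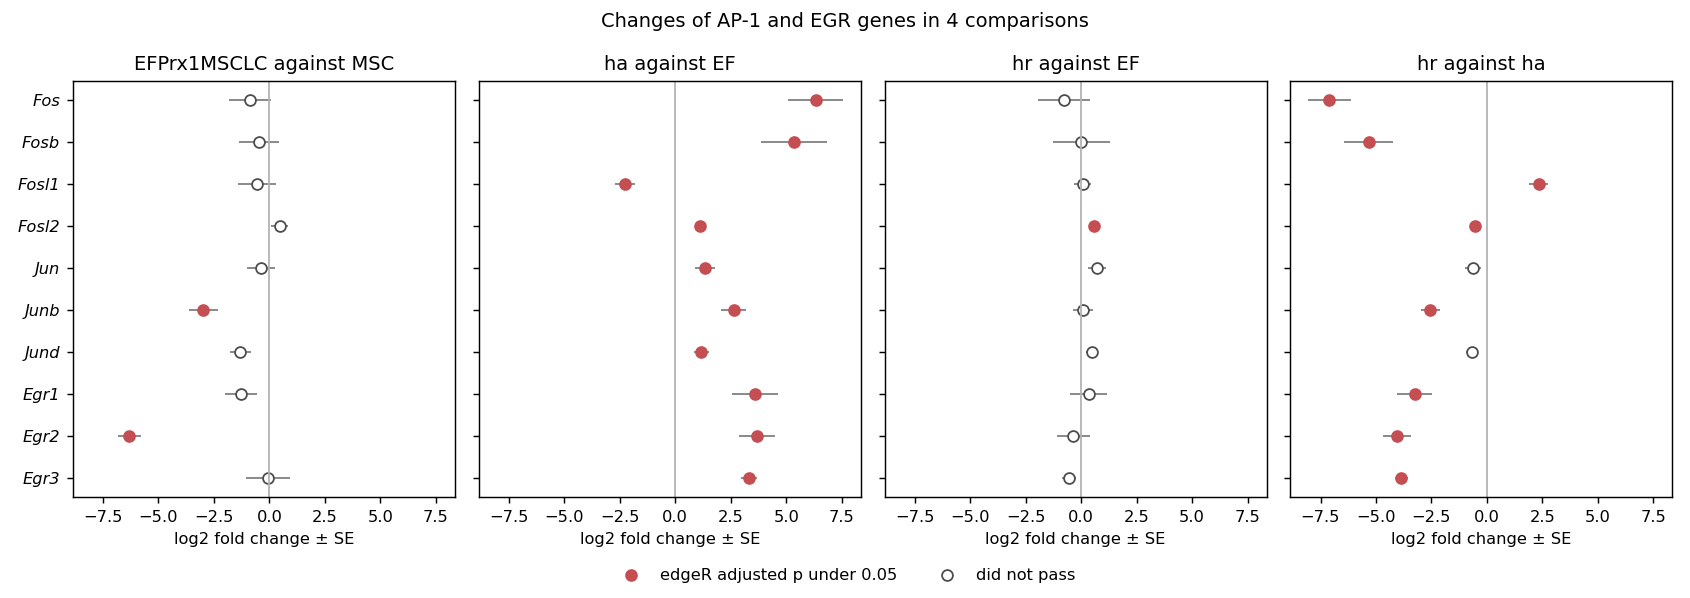
Log2 fold change ± SE of each gene in the 4 comparisons, first group against the second; filled points passed edgeR's test at an adjusted p under 0.05 and open points did not. In ha against EF 9 genes lie right of 0 and Fosl1 lies left at -2.27, while in EFPrx1MSCLC against MSC the filled points are Junb at -2.97 and Egr2 at -6.31.

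The make-up of each family was described per length of exon. Shares were taken from CPM per kilobase, summed over the 4 FOS genes in a library. Fosl1 made up 69.1 and 70.5% of the family in EF and 58.6 to 66.0% in hr, but 4.76 and 7.72% in ha. Fos made up 1.68 and 2.40% in EF and 0.368 to 1.72% in hr, but 66.7 and 29.6% in ha 1 and ha 2. In ha 2, Fosl2 held the largest share of the family, 59.3%. In the JUN family, Jun and Jund together held most of the mRNA in EF, hr and ha. Junb was at 14.5 to 16.0% in EF and 7.48 to 15.2% in hr, while it held 30.6 and 32.1% of the family in ha. Egr1 held 86.7 to 98.1% of the EGR family in every library of experiment 2. These shares are descriptions of mRNA and were not tested.

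**Figure D3:**
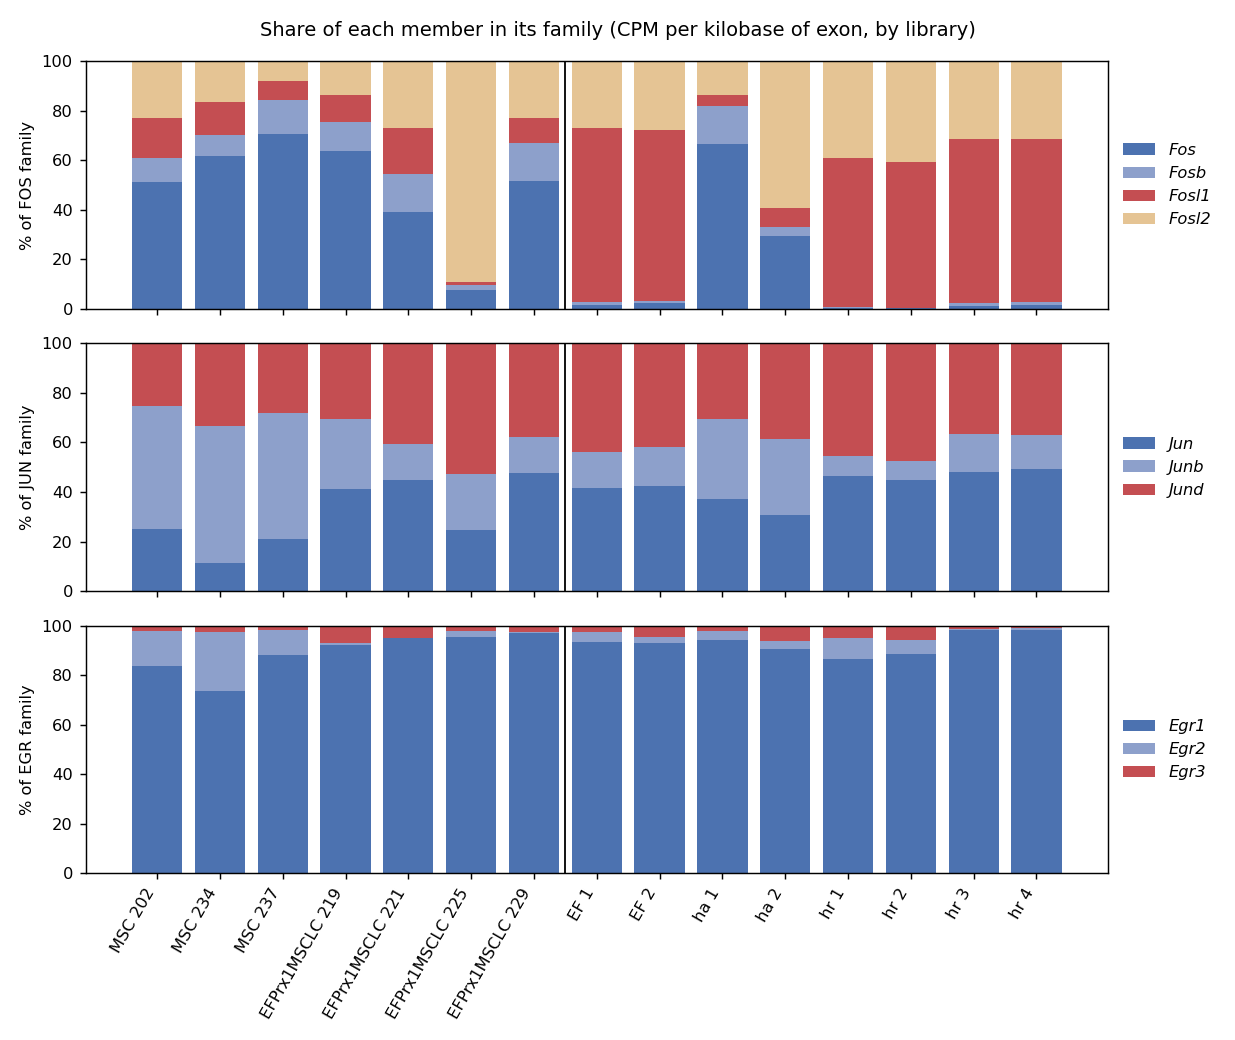
Share in percent of each gene in its family, from CPM per kilobase of exon, stacked for each of 15 libraries; the line parts the experiments. The share of Fosl1 is 58.6 to 70.5% in EF and hr and 4.76 to 7.72% in ha, and Junb holds 49.6 to 55.3% of the JUN family in MSC.

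In experiment 1, 2 of the 10 genes differed between EFPrx1MSCLC and MSC by edgeR, Egr2 and Junb, both lower, and 0 were higher, where 19.8% of all 14623 genes tested were called, 12.1% lower and 7.7% higher. The same 2 genes lay lower without overlap and 0 lay higher, where 13.9% and 25% of all genes did. At an unadjusted p under 0.05, 3 genes were lower and 0 higher, and the share of all genes at that threshold is not given here. DESeq2 called 3 lower and 0 higher, where it called 4599 of all 14473 genes in either direction. Limma-voom called 2 lower and 0 higher, where it called 3088 of 14623. Egr2, a factor known for myelination in Schwann cells and also present in macrophages, was at 26.3, 27.7 and 26.4 CPM in the MSC libraries. It was at 0.806, 0.209, 0.263 and 0.335 CPM in EFPrx1MSCLC 219, 221, 225 and 229, from 14, 4, 4 and 9 counts. All 4 EFPrx1MSCLC libraries lay below all 3 MSC libraries, with a log2 fold change of -6.31 ± 0.50 (adjusted p = 0.000845, edgeR) that passed in all 13 alternatives. Its share of the EGR family per length was 9.89 to 23.9% in MSC and 0.285 to 2.34% in EFPrx1MSCLC. EFPrx1MSCLC 219, the highest of its group in Egr2, was also the highest in macrophage markers (413 CPM against 28.5 to 46.8 CPM). Across the 3 MSC libraries, macrophage markers differed from 9959 to 28272 CPM while Egr2 stayed within 26.3 to 27.7 CPM. A total of 9 of 10 macrophage markers and 6 of 7 hematopoietic markers were called lower in EFPrx1MSCLC, and their part in the Egr2 value was not tested. Mitochondrial reads were also a larger part of the counts in EFPrx1MSCLC (4.06 to 8.43%) than in MSC (1.63 to 3.52%). Sox10, which defines Schwann cells, was at 0 in all EFPrx1MSCLC libraries.

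Junb was at 119, 319 and 350 CPM in MSC 202, 234 and 237 and at 88.4, 29.1, 14.0 and 31.1 CPM in EFPrx1MSCLC. The groups did not overlap, with MSC 202 nearest to EFPrx1MSCLC 219, and the log2 fold change was -2.97 ± 0.64 (adjusted p = 0.0187, edgeR). The call was lost without MSC 234 (-2.79, adjusted p = 0.0631), MSC 237 (-2.74, adjusted p = 0.0665), EFPrx1MSCLC 221 (-2.92, adjusted p = 0.0531) or EFPrx1MSCLC 229 (-2.95, adjusted p = 0.0562). MSC 202 also had the lowest macrophage marker sum of its group, and the part of macrophage RNA in the Junb value was not tested. Prdx2, which overlaps Junb on the other strand, did not pass (-0.31 ± 0.34, adjusted p = 0.545, edgeR). Junb held 49.6 to 55.3% of the JUN family per length in MSC and 14.4 to 28.2% in EFPrx1MSCLC. Jund was at 44.1, 140 and 141 CPM in MSC and 69.4, 59.6, 23.6 and 58.5 CPM in EFPrx1MSCLC; it did not pass (-1.30 ± 0.48, adjusted p = 0.0931, edgeR), but did so without MSC 202 (-1.67, adjusted p = 0.0203) and by DESeq2 (adjusted p = 0.0373).

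The other 7 genes overlapped between the groups. Fos was at 151, 119 and 422 CPM in MSC and 354, 81.9, 10.2 and 161 CPM in EFPrx1MSCLC, with a log2 fold change of -0.87 ± 0.95 (adjusted p = 0.533, edgeR). Fosb was at 74.3, 44.2 and 220 CPM in MSC and 175, 84.8, 6.37 and 125 CPM in EFPrx1MSCLC, with the libraries of each group in the same order as for Fos. Fosl1 was at 41.4, 22.2 and 39.6 CPM in MSC and 51.9, 33.5, 1.44 and 27.5 CPM in EFPrx1MSCLC. EFPrx1MSCLC 221, which shares its number with experiment 2, was thus at 81.9 CPM for Fos and 33.5 CPM for Fosl1. EF was at 2.41 and 3.33 CPM for Fos and at 87.6 and 83.1 CPM for Fosl1. The experiments were not tested against each other. Jun was at 84.0, 90.0 and 200.3 CPM in MSC and 179, 125, 21.3 and 141 CPM in EFPrx1MSCLC. Egr1 was at 203, 113 and 311 CPM in MSC and 215, 91.6, 14.1 and 95.5 CPM in EFPrx1MSCLC (-1.28 ± 0.74, adjusted p = 0.247, edgeR). Egr3 was at 4.71, 3.89 and 6.71 CPM in MSC and 16.4, 4.65, 0.328 and 2.31 CPM in EFPrx1MSCLC. Fosl2 was at 278, 130 and 194 CPM in MSC and 315, 232, 477 and 294 CPM in EFPrx1MSCLC (0.47 ± 0.38, adjusted p = 0.397, edgeR). The median log2 fold change was -0.71 for the 10 genes and 0.04 for all genes.

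Several of the widest differences lay between libraries of 1 group. These contrasts were picked after the values were seen, they have no replicates, and no test was made. In ha 1, Fos was 9.83 times, Fosb 19.3 times, Egr1 4.62 times, Egr2 4.48 times, Jun 3.11 times, Junb 2.70 times, Fosl1 2.69 times and Jund 2.03 times as high as in ha 2. Fosl2 was at 0.994 times and Egr3 at 1.65 times. Thus 8 of 10 genes were over 2-fold higher in ha 1 (after adding 0.5 CPM), where 2.53% of all genes were, and 0 were over 2-fold lower, where 7.15% were. In hr, libraries titled uns-2 had 4.99 times as much Fos, 5.09 times as much Fosb and 4.27 times as much Egr1 as those titled uns-1, while Fosl2 (1.03 times) and Jun (1.06 times) were close. After adding 0.5 CPM, the ratios of Fos, Fosb and Egr1 were 3.10, 3.79 and 4.23. These 3 genes were then over 2-fold higher, where 3.44% of all genes were, and 0 were over 2-fold lower, where 4.2% were. Egr2 ran against them, 2.41 times as high in uns-1, or 1.91 times after adding 0.5 CPM. It had 31 and 20 counts in uns-1 and 12 and 11 in uns-2. EFPrx1MSCLC 225 had lower values than the mean of the other 3 libraries of its group by over 2-fold in 8 of 10 genes, where 16.5% of all genes were, and 0 were over 2-fold higher, where 8.47% were. Fosl1 was at 1.44 CPM there against at least 27.5 CPM in each of the others, and Fosl2 was 1.70 times as high. Mitochondrial reads made up 8.43% of the counts in that library and 4.06 to 5.77% in the others of its group; their part in these values was not tested.

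**Figure D4:**
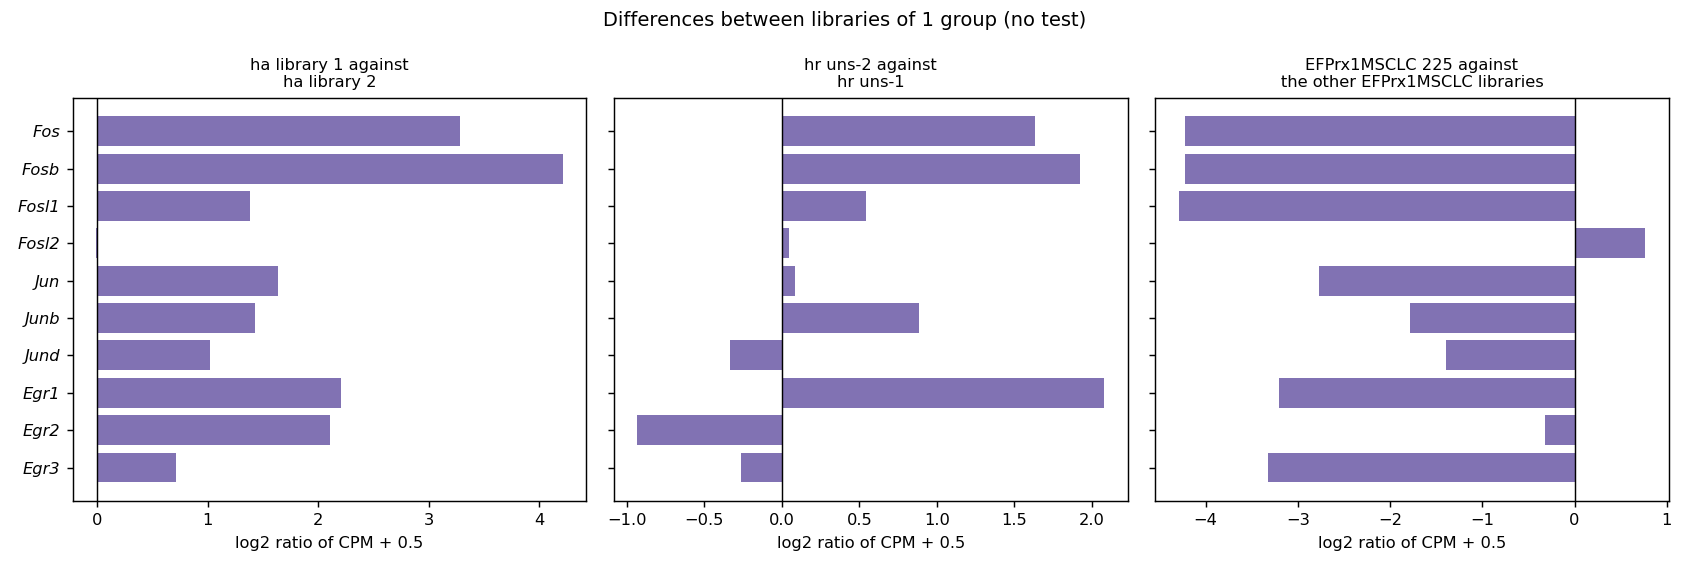
Log2 ratio of CPM (0.5 added) for the 10 genes between libraries of 1 group: ha 1 against ha 2, the mean of hr uns-2 against that of hr uns-1, and EFPrx1MSCLC 225 against the mean of the other 3 libraries. Fosb spans 4.22 in the ha panel and -4.23 in the EFPrx1MSCLC panel, and Fosl2 stays at -0.01 in the ha panel.

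Other early response genes were read next to the 10. Of 20 such genes tested in experiment 2, 8 were higher and 1 was lower in ha against EF, where 23% and 19.6% of all genes were. The orphan nuclear receptors Nr4a1 (5.22 ± 1.04, adjusted p = 0.00616, edgeR; mean 338 CPM against 9.42 CPM) and Nr4a2 (2.17 ± 0.42) rose, as did the factor Klf2 (1.71 ± 0.32). Cited2, a CBP/p300-binding coregulator, was lower by a log2 fold change of -0.62 ± 0.11 (adjusted p = 0.00409, edgeR). The median over the 20 genes was 1.34, and 0.05 over all genes. With the close libraries summed, 0 of the 20 passed, with 8 higher and 1 lower at an unadjusted p under 0.05. Against EF, hr had 0 of the 20 called by edgeR, DESeq2 or limma-voom, where edgeR called 6.95% of all genes. At an unadjusted p under 0.05, 1 gene was higher by edgeR. Against ha, 9 were lower in hr and 2 higher, where 21.5% and 17.9% of all genes were, among them the mRNA decay factor Zfp36 (-3.48 ± 0.53, adjusted p = 0.00218, edgeR). Between the 2 ha libraries, 10 of the 20 were over 2-fold higher in ha 1 and 1 lower, where 2.53% and 7.15% of all genes were. In EFPrx1MSCLC against MSC, 5 of 19 tested were lower and 1 higher, where 12.1% and 7.7% of all genes were. Ier2 (-2.29 ± 0.56), Nr4a2 (-2.16 ± 0.60) and Klf4 (-1.76 ± 0.37) fell, and the matricellular gene Ccn1, a YAP1 target, rose (1.57 ± 0.41, adjusted p = 0.0344, edgeR). The macrophage and hematopoietic markers (9 of 10 and 6 of 7 lower) and the mitochondrial share differed between these groups too, and their part in these values was not tested.

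**Figure D5:**
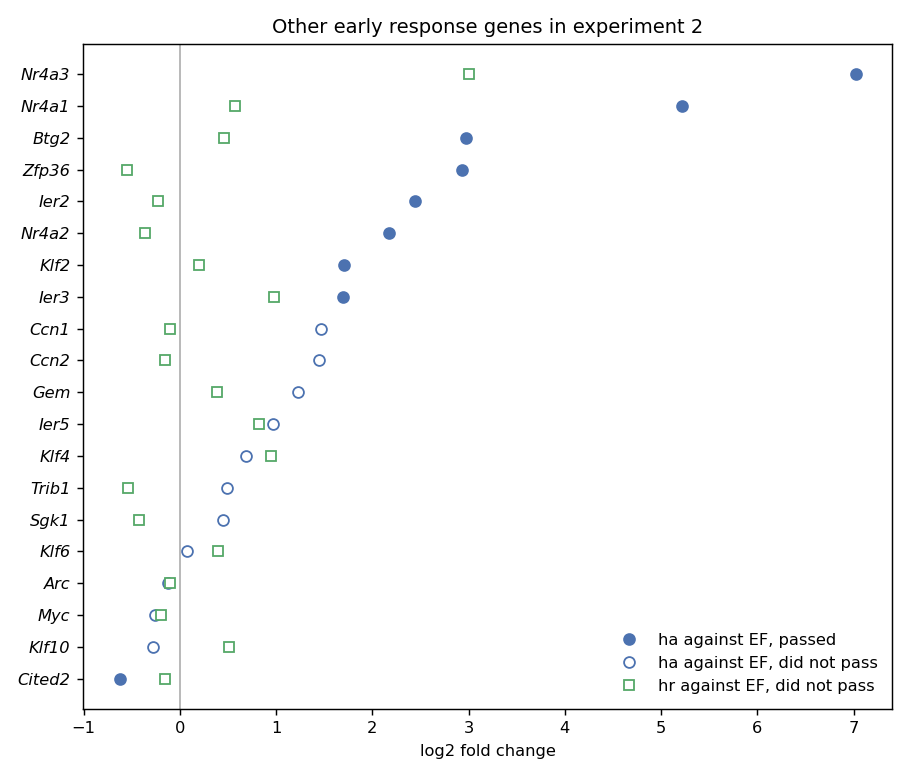
Log2 fold change of 20 other early response genes in ha against EF (circles) and hr against EF (squares); filled symbols passed edgeR's test at an adjusted p under 0.05. Nr4a1 lies at 5.22 in ha against EF, and no square is filled.

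Kinases carry signals to these factors by phosphorylation, and mRNA levels do not measure that activity. Of 12 MAP kinase pathway genes, 4 were higher and 2 lower in ha against EF, or 6 in all, where 42.6% of all genes were called. Among them Mapk8 (JNK1, 0.59 ± 0.14), Map2k7 (0.56 ± 0.09) and Rps6ka1 (1.68 ± 0.41, mean 2.60 against 0.814 CPM) were higher. In hr against EF, Mapk8 (0.58 ± 0.13) and Map2k1 (0.63 ± 0.10) rose and 0 of the 12 fell, where 6.95% of all genes were called. In EFPrx1MSCLC, Mapk9 (0.73 ± 0.21) and Map2k4 (1.01 ± 0.23) were higher than in MSC and 0 of the 12 lower, where 19.8% of all genes were called. Of 8 genes for serum response factor, its cofactors and ETS factors, 3 were lower in ha against EF (Elk3 -0.44 ± 0.10, Mrtfb -0.55 ± 0.12, Ets1 -0.78 ± 0.24) and 0 higher. Of all genes, 19.6% were lower and 23% higher there. In hr against EF, 0 of 8 were called, where 6.95% of all genes were. In EFPrx1MSCLC, Srf (1.11 ± 0.25) and Mrtfb (1.40 ± 0.38) were higher and Ets2 (-1.83 ± 0.39) was lower than in MSC, where 7.7% and 12.1% of all genes were.

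The ERK feedback list holds inhibitors of the pathway and the ETS genes Etv4 and Etv5, which ERK signals induce. Of 11 tested, 3 were higher and 5 lower in ha against EF, where 23% and 19.6% of all genes were. The Sprouty genes Spry1 (3.15 ± 0.51, mean 21.6 against 2.49 CPM) and Spry2 (3.40 ± 0.49, mean 137 against 13.2 CPM) rose, and Spred2 (-1.35 ± 0.10) and the ERK phosphatase Dusp6 (-0.77 ± 0.16) fell. In hr against EF, Dusp6 (-0.79 ± 0.13) and Spred2 (-0.60 ± 0.08) were lower as well, and 0 of 11 higher, where 3.07% and 3.88% of all genes were. Against ha, hr had 3 lower and 3 higher, where 21.5% and 17.9% of all genes were, with Spry2 lower (-3.52 ± 0.38) and the ETS gene Etv4 higher (3.64 ± 0.70). In EFPrx1MSCLC, 1 of 12 passed, Spry1 (-2.52 ± 0.51, adjusted p = 0.0151, edgeR), where 19.8% of all genes did. Of the 3 EGR partner genes tested, the corepressor Nab1, which binds EGR proteins, was lower in ha than in EF (-1.34 ± 0.16, adjusted p = 0.000865, edgeR; mean 38.1 against 96.7 CPM) and higher in hr than in ha (1.41 ± 0.15). Its relative Nab2 did not pass (0.03 ± 0.30 in ha against EF).

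Among 15 other bZIP genes tested in experiment 2, 1 was called higher and 1 lower in ha against EF, where 42.6% of all genes were called. The lower one was Atf1 (-0.57 ± 0.10), a relative of CREB. In hr against EF 0 of 15 were called by edgeR, where 6.95% of all genes were, with 1 lower at an unadjusted p under 0.05 and 1 lower by DESeq2. Against ha, 2 of 15 were lower in hr and 0 higher, where 21.5% and 17.9% of all genes were. Among the lower ones was Atf3 (-2.52 ± 0.80), a stress-induced partner of JUN proteins. In EFPrx1MSCLC, 4 of 16 were lower and 0 higher, where 12.1% and 7.7% of all genes were. The lower ones were Atf3 (-3.34 ± 0.66), Atf4 (-1.34 ± 0.27), Jdp2 (-1.23 ± 0.29) and Batf (-6.81 ± 1.28), a factor of lymphoid and myeloid cells. The hematopoietic marker sums given above were lower there too, and their part in these values was not tested.

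Genes known as AP-1 targets changed in both directions. Of 15 tested in experiment 2, 3 were higher and 4 lower in ha against EF, or 7 in all, a share near the 42.6% of all genes that were called. Plau (urokinase, 2.69 ± 0.32) rose while its receptor gene Plaur (-2.85 ± 0.29), the cyclin gene Ccnd1 (-3.09 ± 0.46; mean 94.7 against 813 CPM) and the EGF receptor ligand gene Areg (-5.27 ± 0.87) fell. In hr against EF, Vegfa (1.32 ± 0.30) was the one higher and the chemokine gene Ccl2 (-1.12 ± 0.23) the one lower, where 3.88% and 3.07% of all genes were. Against ha, hr had 6 higher and 3 lower, where 17.9% and 21.5% of all genes were, with Plaur at 2.79 ± 0.27 and Plau at -2.49 ± 0.25. In EFPrx1MSCLC, 6 of 17 were lower and 1 higher than in MSC, where 12.1% and 7.7% of all genes were. Cxcl1 (-7.12 ± 0.73), Ccl2 (-4.05 ± 0.52), Timp1 (-3.30 ± 0.66) and Vegfa (-2.02 ± 0.36) fell. The marker sums of macrophages, which can also make Cxcl1 and Ccl2, were lower there too. Their part in these values was not tested. Summing the close libraries leaves 1 EF sample. In that fit, most tested genes of each of these lists did not pass in ha against EF or in hr against ha. Most of all genes did not pass there either. In hr against EF no gene of any list passed, and none did over all genes.

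For the 3 genes with the widest range over the libraries, the nearest patterns were sought among 14356 genes, by the mean absolute difference of log2 CPM centred within each experiment over 15 libraries. Nearest to Fos were Fosb (0.61), Egr1 (0.85) and Reep1 (0.85), where the median over all genes was 1.91. Nearest to Fosb were Egr1 (0.56), Fos (0.61) and Btg2 (0.85), with a median of 1.53. Nearest to Egr2 were Entpd2 (0.56), C1qtnf7 (0.63) and Lrmda (0.63), with a median of 2.21. The libraries within each close pair make these 15 points fewer in effect, and the values are descriptions.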

How the data were processed

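RNA-seq of 15 mouse libraries was analysed. The authors deposited 1 table of expected (estimated) counts per gene, with 55471 genes, of which 55144 have a symbol, and 8.27% of its values were fractional. The submitters' processing notes list STAR, RSEM and GRCm38.p6 with no version, and neither the gene annotation nor the strand setting is stated. Per the submitters' processing notes, the authors thus made the expected counts with STAR and RSEM, which shares out reads that map to several genes.

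Expected counts were rounded. Genes passing filterByExpr (minimum count 10) were scaled by TMM and tested with edgeR 4.0.16 (glmQLFit, robust; glmQLFTest, two-sided; R 4.3.3), with Benjamini-Hochberg adjustment over all genes tested and a threshold of 0.05. Each experiment was fitted on its own, so EF, ha and hr share 1 estimate of the spread. Fold changes are log2 with standard errors; levels are CPM of the library total, and CPM per kilobase uses exon lengths of GENCODE M21. Alternatives were DESeq2 1.42.0 (size factors or Wald test), limma-voom (limma 3.58.1), no filter, a filter at 5 CPM, only the groups compared, leaving out each library, a replicate block, removal of macrophage and hematopoietic genes, and summing close libraries.

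The 10 genes and all lists were chosen with earlier results of these data known. Text names the 10 genes, up to 4 called genes per list and comparison by p-value, and the 3 genes with the pattern most like each of the 3 most variable genes. A few list genes picked in this way are not reported here. Single-library contrasts and overlapping genes were chosen after their values were seen.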

Additional observations from a re-analysis of the deposited data

How the results depend on the processing

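Over all genes, the main fits called 19.8% in EFPrx1MSCLC against MSC and 42.6% in ha against EF. They called 6.95% in hr against EF and 39.4% in hr against ha. With each library of experiment 1 left out, from 1221 of 15183 genes (without MSC 237) to 5087 of 15115 (without MSC 202) were called. Such figures are not given here for experiment 2. The number of the 10 genes called was 2 in EFPrx1MSCLC against MSC and 1 to 3 when each library was left out in turn. In ha against EF it was 10, or 3 to 10 with each library left out, 6 with no filter on low counts and 1 with the close libraries summed. In hr against EF it was 1, or 0 to 2 with each library left out, 2 with only the groups compared and 0 with the close libraries summed. In hr against ha it was 8, or 7 to 10 with each library left out, and 2 with the close libraries summed.

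Direction and call were kept in 118 of 129 pairs of gene and alternative in EFPrx1MSCLC against MSC, 119 of 160 in ha against EF, 141 of 160 in hr against EF and 146 of 160 in hr against ha. The sign turned only for log2 fold changes that had not passed the main test. With each library left out, EFPrx1MSCLC against MSC ran from -0.97 to 0.42 for Fosb, from -0.71 to 0.12 for Jun and from -1.40 to 0.25 for Egr3. In hr against EF the same ranges were -0.51 to 0.36 for Fosb, -0.036 to 0.17 for Fosl1, -0.13 to 0.23 for Junb and -0.017 to 0.61 for Egr1, and in hr against ha -1.26 to 0.50 for Jun. Fosb in hr against EF also turned with DESeq2's Wald test (-0.011), limma-voom (-0.44) and the replicate block (-0.028), and Egr1 with limma-voom (-0.026). The cause was not tested, beyond the fewer samples where libraries are left out or summed.

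In experiment 2, deviations of libraries with the same last number in their titles correlated across genes by -0.0117 to 0.0193. Each correlation included a close pair, whose median squared difference was 1.274 to 1.294, near the 1 set for reads that are only sampled. Such pairs leave little beyond sampling to correlate, so these values cannot decide if the title number pairs the libraries. With that number as a replicate block, 9 genes were called in ha against EF, 1 in hr against EF and 8 in hr against ha. No paired analysis was possible in experiment 1 because the groups share no number.

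Egr2 had as few as 4, Egr3 5, Fos 6 and Fosb 7 counts in a library, and each group had 2 to 4 libraries, some of them close pairs. Changes well above the standard errors given could also be missed. Jund did not pass at -1.30 ± 0.48 in EFPrx1MSCLC against MSC or at -0.68 ± 0.27 in hr against ha.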
